A study of Mus musculus with 7 samples.

Results

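The 39 protein-coding genes of the mouse Hoxa, Hoxb, Hoxc and Hoxd clusters, of 21900 protein-coding genes in the RefSeq table of GRCm38.p6 (the assembly of mm10), were taken by their symbols. For each cluster the span from its first to its last gene (the cluster body) and 500 kb on each side (the flanks) made a window, and regions of JUNB signal with a summit inside were listed. JUNB had been mapped by CUT&RUN, in which an antibody-tethered nuclease releases the DNA around a protein, in mouse embryonic fibroblasts of the iMGT-Myh6-eGFP-MEF line, which carries a Myh6-eGFP reporter and doxycycline-inducible Mef2c, Gata4 and Tbx5 (MGT). Cells received siControl or siChst7, an siRNA against a sulfotransferase gene, all received doxycycline, and all were harvested at day 1 after induction. Peak lists of 4 JUNB libraries, 2 per siRNA, were used, and 3 IgG libraries of the 7 samples were not analysed here. The shared treatment protocol speaks of siJunb and siH1f0 where the titles say siChst7. Libraries are numbered as biological replicates with no statement of separate cultures, so any p-value over libraries may measure technical spread. No expression values were at hand, so neither the level of any Hox gene nor that of Chst7 is known here.

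Hox genes encode homeodomain transcription factors that give cells their position along the body axis, and fibroblasts keep a Hox pattern of the place they came from. Within a cluster the genes lie in the order in which they are used along the axis, from group 1 at the front to group 13 at the tail and limb ends. Polycomb complexes keep silent parts of the clusters shut, trithorax complexes keep active parts on, and retinoic acid switches on the front genes. TALE proteins such as Pbx and Meis bind DNA together with Hox proteins. JUNB is a subunit of AP-1, a transcription factor that binds mainly at distal elements in fibroblasts.

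The Hox cluster bodies held 3 JUNB regions, and none of these was held by all 4 lists. Peaks of the 4 lists that overlapped were joined, and the 4 windows (4.49 Mb in all) held 32 joined regions, 3 in the bodies and 29 in the flanks. Of the 32 regions, 6 (18.8%) were in all 4 lists, against 22.0% of the 12655 regions of the genome. A further 15 (46.9%) were in 1 list alone, against 46.7% of the genome. These shares are near the background. Of the 15, siControl replicate 1 held 5, siControl replicate 2 held 2, siChst7 replicate 1 held 7 and siChst7 replicate 2 held 1. Over the genome these lists held, in the same order, 17.8%, 12.6%, 62.4% and 7.19% of the regions found in 1 list alone. The lists held 6469, 5827, 10163 and 4735 peaks in that order. The labels state 30 M reads per library, and the mapped depth is unknown.

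Short cluster bodies limit what an absence can show. The 4 bodies covered 492 kb together, and at the genome mean of 1.06 regions in all 4 lists per Mb that length would hold 0.521 regions. The count of 0 seen there allows up to 6.10 per Mb (3 regions, counting error only), so a lower density than the genome's was not detectable. In any list the bodies held 3 regions where the genome mean (4.81 per Mb, counted up to the last annotated gene of each autosome and X) would give 2.37. The flanks held 29 in 4000 kb where that mean would give 19.2.

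**Figure D1:**
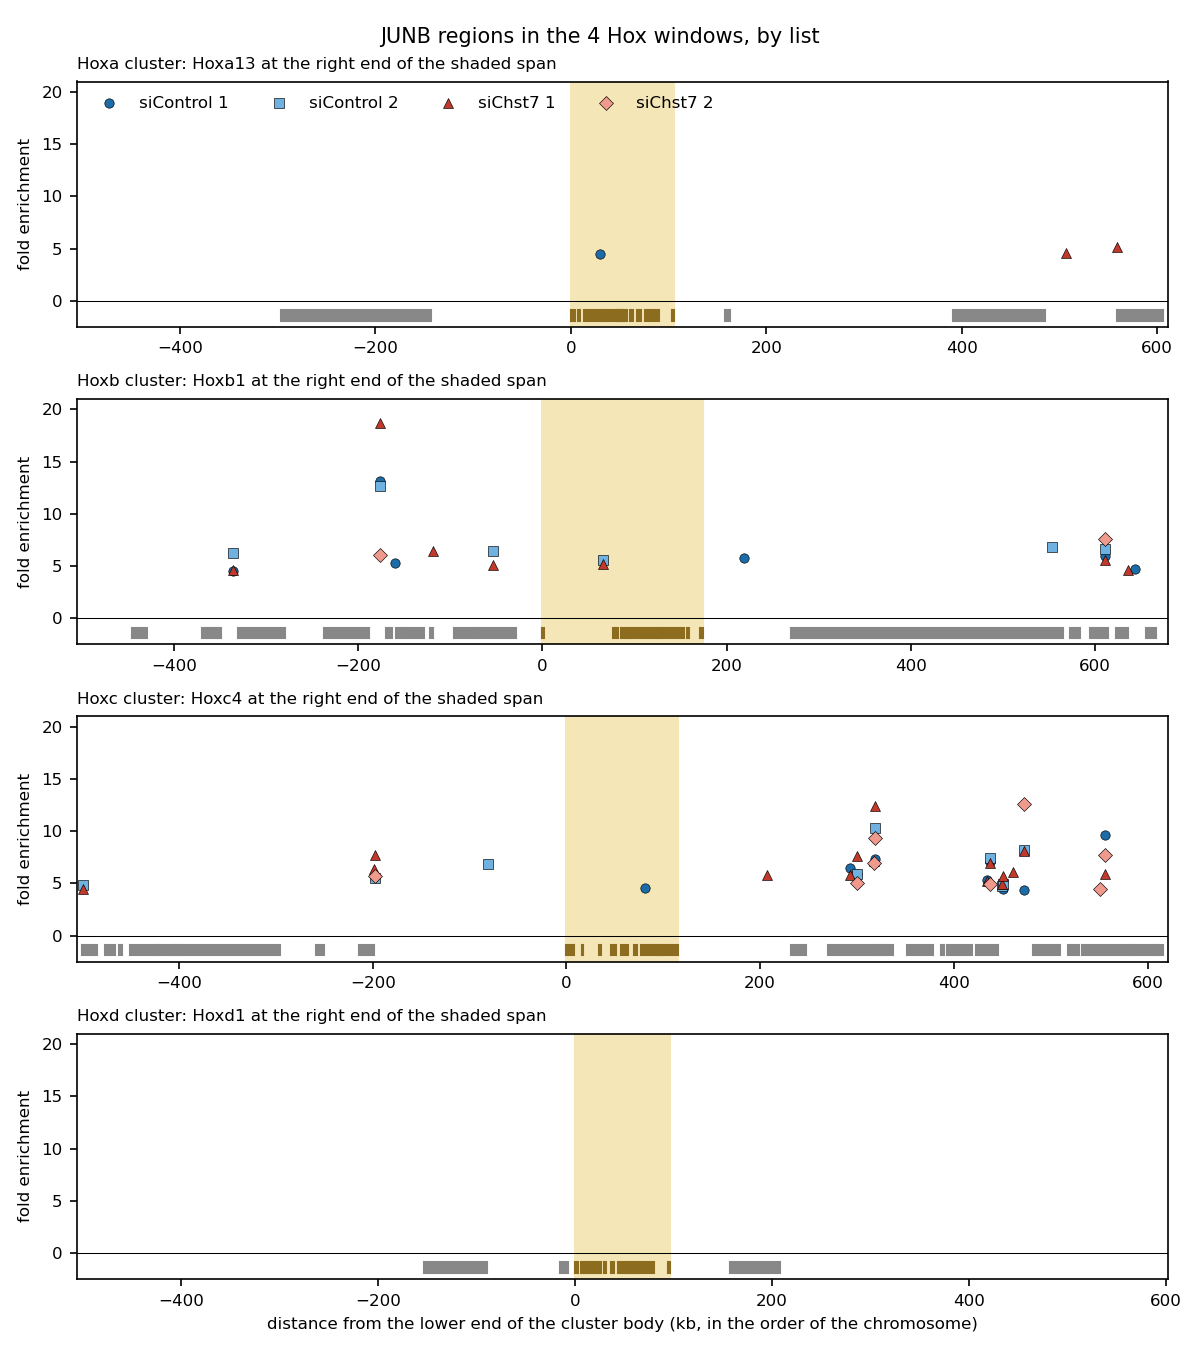
JUNB regions in the 4 windows, with the distance in kb from the lower end of each cluster body on the x axis and the authors' fold enrichment on the y axis; each point is a region in 1 list, shading marks the cluster body, and bars under 0 mark protein-coding genes (brown for Hox). The bodies held 3 regions, the Hoxd window held 0, and the Hoxc side beyond Hoxc4 held 13.

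No Hox gene had a JUNB summit at its ends. A summit of any list within 1 kb of either gene end was found for 0 of 39 Hox genes, against 7.56% of all protein-coding genes. A summit inside the gene or within 5 kb was found for 3 Hox genes (Hoxa3, Hoxa4 and Hoxc6), against 23.2% of all genes. When every region was assigned to whichever gene end was closest, up to 100 kb away, Hoxa4, Hoxb1, Hoxb9, Hoxc6 and Hoxc13 owned a region, 5 of 39, against 25.1% of all genes. With regions in all 4 lists, 0 of 39 Hox genes owned one, against 8.33%. The stretch of genome nearest to a Hox gene had a median of 12.2 kb, against 45.8 kb over all protein-coding genes, so a Hox gene had less room to own a region. How far this accounts for the lower shares was not tested.

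The promoter sequences show where letters of the AP-1 motif stood with and without a JUNB region. RefSeq promoters (250 bases before to 50 after the gene's start, GRCm38.p6) were found for 22 of 39 Hox genes, 24 promoters in all. Of the Hoxc genes only Hoxc4 had one, and of the Hoxb genes only Hoxb1, Hoxb4 and Hoxb8. The promoter counts therefore say little about these 2 clusters. The AP-1 motif TGANTCA, which reads the same on both strands, was in 1 of the 24 (4.17%), against 7.81% of the 32851 promoters in the table. That promoter belongs to Hoxd11, a gene of limb and tail patterning (chr2:74679308-74679607, plus strand), with the motif starting 20 bases before the gene's start, and no list had a peak within 819 kb of the gene. In the windows, 8 promoters of 7 genes overlapped a JUNB region, 0 of them of Hox genes, and 2 of the 8 held the motif. Of these, Hnrnpa1 (chr15:103240147-103240446, plus strand), in the Hoxc flank, had the motif inside a region held by all 4 lists and 135 bases from its summit. The same region overlapped the promoter of Cbx5 on the opposite strand (chr15:103239803-103240102, minus strand), which holds no motif. At Atp5g1 in the Hoxb flank (chr11:96075582-96075881, minus strand), the motif started 6 bases after the gene's start, outside a region of siChst7 replicate 1 and 200 bases from its summit. A match is a description of letters, not a binding site. Capitals mark the motif.
Hoxd11: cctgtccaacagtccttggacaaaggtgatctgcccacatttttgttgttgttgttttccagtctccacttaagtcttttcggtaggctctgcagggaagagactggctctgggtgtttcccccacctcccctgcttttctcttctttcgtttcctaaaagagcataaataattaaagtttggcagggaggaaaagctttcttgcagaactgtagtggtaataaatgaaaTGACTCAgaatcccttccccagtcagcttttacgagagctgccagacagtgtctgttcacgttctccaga
Hnrnpa1: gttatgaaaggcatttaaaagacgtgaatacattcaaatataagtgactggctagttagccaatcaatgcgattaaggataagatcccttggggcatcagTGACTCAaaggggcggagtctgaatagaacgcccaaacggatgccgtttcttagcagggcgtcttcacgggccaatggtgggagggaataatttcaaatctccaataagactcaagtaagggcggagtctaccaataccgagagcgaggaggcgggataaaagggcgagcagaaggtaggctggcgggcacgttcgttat
Cbx5: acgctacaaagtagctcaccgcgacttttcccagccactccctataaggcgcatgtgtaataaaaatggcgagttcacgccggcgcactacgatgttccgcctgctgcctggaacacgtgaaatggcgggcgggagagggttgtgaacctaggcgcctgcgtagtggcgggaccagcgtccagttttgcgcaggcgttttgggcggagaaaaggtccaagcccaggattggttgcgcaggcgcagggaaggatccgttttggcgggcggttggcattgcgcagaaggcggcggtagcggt
Atp5g1: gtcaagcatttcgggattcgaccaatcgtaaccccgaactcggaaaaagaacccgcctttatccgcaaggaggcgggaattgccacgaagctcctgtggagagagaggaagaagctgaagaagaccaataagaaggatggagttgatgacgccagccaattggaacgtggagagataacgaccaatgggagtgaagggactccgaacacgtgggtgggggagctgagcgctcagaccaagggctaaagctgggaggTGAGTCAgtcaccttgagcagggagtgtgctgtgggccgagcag

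The Hoxa body (chromosome 6, 106 kb, 11 genes) held 1 region, in siControl replicate 1 alone. It lay at 52185397 to 52185679, inside the RefSeq span of Hoxa3, which patterns pharyngeal structures, and 4.14 kb from the nearest end of Hoxa4. Its fold enrichment over local background, the authors' value for a peak, was 4.51 with a −log10 q of 2.66, near the lists' lower limit of about 2. By fold it ranked 5999th of 6469 in its list. The other Hoxa genes lay 16.2 to 73.3 kb from that summit, with Hoxa13, a gene of digits and the genital tract, the farthest. Every Hoxa gene lay at least 565 kb from a region held by all 4 lists. The nearest such region stood near Jazf1, outside the window.

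The Hoxb body (chromosome 11, 96194316 to 96368254, 10 genes) held 1 region, at 96260173 to 96260915, in the wide interval between Hoxb13 and Hoxb9. It was in siControl replicate 2 as 1 peak with a fold of 5.59. In siChst7 replicate 1 it was 2 peaks, the higher with 5.19, so each siRNA had it in 1 list. The 2 peaks were joined only through the siControl peak: without siControl replicate 2 the 4 bodies held 4 regions. The region overlapped the noncoding gene Gm53 and lay 11.0 kb from Hoxb9, a gene of rib patterning. It also lay 4.31 kb from the mature miR-196a-5p sequence of Mir196a-1, the closest summit to any of the Hox cluster microRNAs in the table. With a stricter joining rule (50% of each peak) its peaks no longer joined between lists, and with lists of equal length it was in 1 list.

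The microRNAs inside the clusters repress Hox transcripts among other targets, and they fall into seed groups (bases 2 to 8, in capitals) shown here because the Hoxb body region stood nearest to a member. The copies of miR-196a and miR-196b share a seed, as do miR-10a and miR-10b. The closest summit to Mir196b in Hoxa was 44.6 kb away, and to Mir196a-2 in Hoxc 28.7 kb. To Mir10a in Hoxb it was 56.3 kb and to Mir10b in Hoxd 859 kb. Mir615 in Hoxc, whose seeds are in neither group, stood 12.8 kb from a summit in 1 list. Sequences are the RefSeq mature forms, 5′ to 3′.
mmu-miR-196a-5p: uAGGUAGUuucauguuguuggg
mmu-miR-196b-5p: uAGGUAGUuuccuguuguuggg
mmu-miR-10a-5p: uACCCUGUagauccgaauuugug
mmu-miR-10b-5p: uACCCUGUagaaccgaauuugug

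The Hoxc body (chromosome 15, 102921131 to 103036856, 9 genes) held 1 region, at 103001970 to 103002179, inside the span of Hoxc6, a gene expressed in the thoracic trunk. It was in siControl replicate 1 alone, with a fold of 4.51 and a −log10 q of 2.66, and 3.87 kb from the nearest end of Hoxc6. A q of at most 0.001 removed this region and the one in Hoxa3, as did a fold of at least 5, lists of equal length and leaving out siControl replicate 1. Each of these settings left 1 region in the 4 bodies, the one between Hoxb13 and Hoxb9. Hoxc8 and Hoxc5, the neighbours of Hoxc6, lay 7.82 and 11.9 kb from the summit.

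The Hoxd cluster (chromosome 2, 74668225 to 74765142, 9 genes) held no peak in any of the 4 lists, in the body or within 500 kb. The nearest summits lay 808 kb beyond Hoxd13, near Atf2, and 820 kb beyond Hoxd1, leaving 1.72 Mb with no summit, and each was in 1 list, with folds of 4.55 and 4.51. For regions in all 4 lists the stretch was 4.04 Mb. At the genome mean a window of 1.10 Mb would hold 5.28 regions of any list, and the count of 0 allows up to 2.73 per Mb (3 regions, counting error only). Genes as far as Hoxd13 or farther from any summit made up 9.36% of protein-coding genes with a distance, 2048 genes, 9 of them the Hoxd genes. The 9 genes share 1 stretch of genome and are not independent. The flanks are poor in protein-coding genes, with 2 reaching into the side beyond Hoxd13 (Lnpk and Evx2) and 1 into the side beyond Hoxd1 (Mtx2). The whole window, with the 9 Hoxd genes, holds 12.

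**Figure D2:**
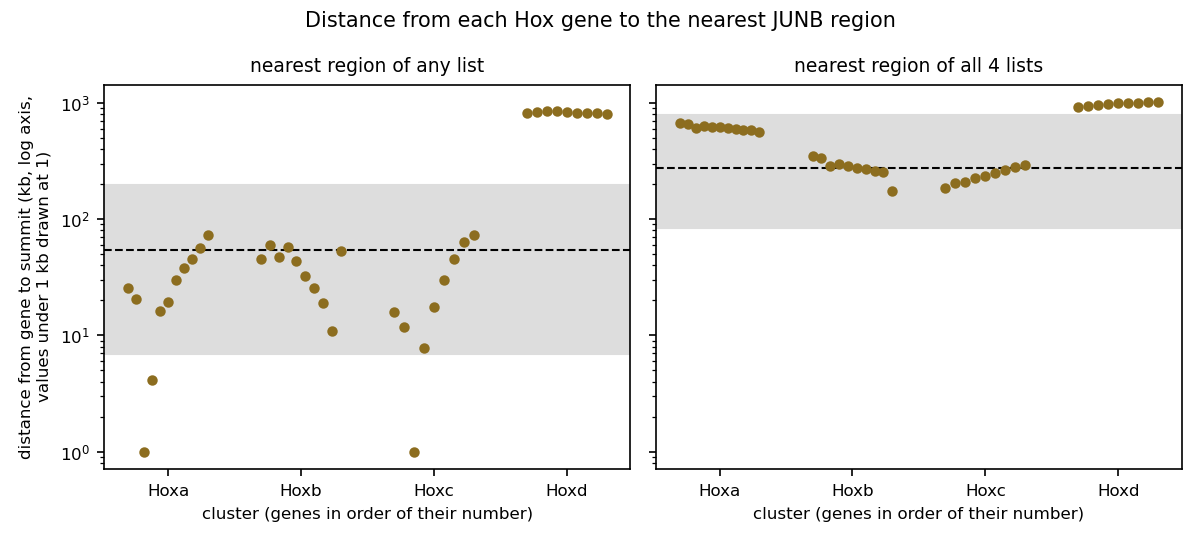
Distance in kb (log axis) from each Hox gene to the nearest JUNB summit of any list (left) and to the nearest region held by all 4 lists (right); points are genes, the grey band spans the quartiles of all protein-coding genes and the dashed line is their median. Hoxa3 and Hoxc6, with a summit inside the gene, are drawn at 1 kb. Hoxd genes lay 808 to 856 kb from any summit, against a median of 54.7 kb over all genes.

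Distances to regions held by all 4 lists followed the cluster. Hoxb genes lay 176 to 348 kb away, with Hoxb13 the closest and Hoxb1 the farthest. Hoxc genes lay 185 to 293 kb away, with Hoxc4 the closest and Hoxc13 the farthest. Hoxa genes lay at least 565 kb and Hoxd genes 924 to 1017 kb away. The median over the 39 genes was 565 kb, against 273 kb over all protein-coding genes, and 0 of 39 lay within 100 kb of such a region, against 27.9% of all genes. For summits of any list the order was the opposite, with a Hox median of 45.4 kb against 54.7 kb, and 30 of 39 Hox genes (76.9%) within 100 kb against 62.0%. The 9 Hox genes beyond 100 kb were the Hoxd genes. The genes of a cluster share their nearest region, so these are 4 loci rather than 39 measurements.

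The Hoxc side beyond Hoxc4 held more regions than any other flank. It held 13 of the 32 regions and 4 of the 6 held by all 4 lists, over 13 protein-coding genes, while the side beyond Hoxc13 held 4 regions over 10 genes. The closest region beyond Hoxc4 lay 91.9 kb away, with Smug1, a DNA repair glycosylase gene, as its nearest gene, and was in siChst7 replicate 1 alone with a fold of 5.77. The closest beyond Hoxc13 lay 81.0 kb away and was in siControl replicate 2 alone with a fold of 6.83. The region overlapping the Hnrnpa1 and Cbx5 promoters lay at 103239879 to 103240376 on chromosome 15, 203 kb from Hoxc4. Its summit fell between these promoters, in neither of them. The region had folds of 7.32 and 10.3 in siControl and 12.4 and 9.35 in siChst7. Hnrnpa1 encodes a splicing factor and Cbx5 the heterochromatin protein HP1 alpha. Its folds overlapped between the siRNAs. A further region inside Cbx5 (103220982 to 103221802) had 5.93 and 5.87 in siControl and 7.63 and 5.05 in siChst7, with the siControl values between the siChst7 values.

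Further along the same side, Itga5, the alpha subunit of a fibronectin receptor, had 5 regions nearest to it. The region in all 4 lists (103358354 to 103359646, inside the gene and 322 kb from Hoxc4) had folds of 7.06 and 7.44 in siControl and 6.94 and 4.94 in siChst7. The siChst7 values lay below the siControl values, in single peaks called list by list. The share of all regions in 4 lists with such a separation is not given here, and an siRNA effect was not tested. The Itga5 region was in 2 lists when peaks had to overlap by 50% of each, so its folds may come from different peaks. A region near Gtsf1, a germline factor of transposon silencing (103393289 to 103394021, 357 kb from Hoxc4), had 4.41 and 8.23 in siControl and 8.08 and 12.6 in siChst7. The siControl and siChst7 values overlapped. A region inside Nckap1l, an actin regulator of blood cells (103476957 to 103477324), was in 3 lists with 9.66, 5.90 and 7.75 and absent from that of siControl replicate 2. Beyond Hoxc13 the best-shared region lay 1.66 kb from Calcoco1, with 5.48 in siControl replicate 2 and 7.76 and 5.67 in siChst7, and was not listed in siControl replicate 1.

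**Figure D3:**
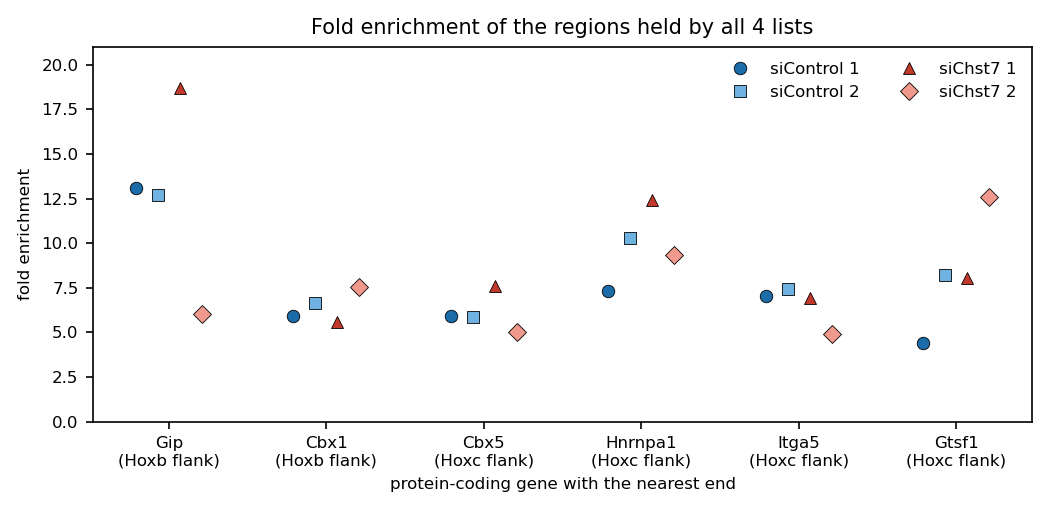
The authors' fold enrichment (y axis) in each list for the 6 regions held by all 4 lists, named by the gene with the nearest end. The Gip region reached 18.7 in siChst7 replicate 1 and 6.05 in siChst7 replicate 2, with the siControl values between them.

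The Hoxb flanks held 10 regions, 5 on each side, and the strongest peak of all 4 windows. That region (chromosome 11, 96017815 to 96018559) lay 176 kb beyond Hoxb13 and 6.44 kb from Gip, which encodes an incretin hormone of the gut. Its folds were 13.1 and 12.7 in siControl and 18.7 and 6.05 in siChst7, and by fold it stood in the top 8.13%, 7.40%, 3.02% and 62.0% of the lists in that order. The siChst7 replicates lay on either side of the siControl values. Between it and Hoxb13 stood regions near Snf8 and Atp5g1, each in 1 list, and a region inside Ttll6 in 2 lists, 53.4 kb from Hoxb13. On the other side, a region inside Cbx1, which encodes the heterochromatin protein HP1 beta (96804594 to 96805133, 437 kb from Hoxb1), had 5.92 and 6.63 in siControl and 5.59 and 7.57 in siChst7. The closest region to Hoxb1, 45.5 kb away, was in siControl replicate 1 alone with a fold of 5.80. The Hoxa flanks held 2 regions, 401 and 453 kb beyond Hoxa13 near Hibadh and Tax1bp1, each in siChst7 replicate 1 alone with folds of 4.61 and 5.19.

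The 6 regions held by all 4 lists depended on how peaks were joined. When summits with 100 bp on each side were joined in place of whole peaks, 3 regions stayed in 4 lists (those near Gip and Hnrnpa1 and in Cbx1), while the Cbx5 and Gtsf1 regions were in 3 and the Itga5 region in 2. The Itga5 region was also in 2 lists when peaks had to overlap by 50% of each. The region closest to the 500 kb limit on its inner side was in the Sp1 gene, 499.6 kb beyond Hoxc13, in 2 lists with folds of 4.49 to 4.80. On the same side the first outside lay 515.6 kb away in 2 lists with 4.44 to 5.77. Beyond Hoxb1 the first outside lay 528.0 kb away in 1 list with a fold of 7.46, and beyond Hoxa13 it lay 564.7 kb away in all 4 lists with 7.22 to 15.0.

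With siControl, the Hox windows had 16 peaks in replicate 1 and 15 in replicate 2, a mean of 15.5 with an SD of 0.707 (n = 2). With siChst7 they had 26 and 10, a mean of 18.0 with an SD of 11.3 (n = 2). The siChst7 replicates thus lay on either side of both siControl values. On the log2 scale the siChst7 mean was higher by 0.06 (two-sided exact permutation over 4 libraries, p = 1.00, smallest possible 0.333). Without siChst7 replicate 1 it was −0.63 (exact permutation p = 0.333) and without siChst7 replicate 2 it was 0.75 (exact permutation p = 0.333). As a share of each list, Hox window peaks made up 0.247% and 0.257% with siControl, where the mean was 0.252% and the SD 0.00707 (n = 2). With siChst7 the shares were 0.256% and 0.211%, their mean 0.233% and their SD 0.0318 (n = 2). The shares of the 2 groups overlapped, and differed by −0.02 percentage points (exact permutation p = 0.667). The longest list had the most Hox window peaks and the shortest list the fewest.

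**Figure D4:**
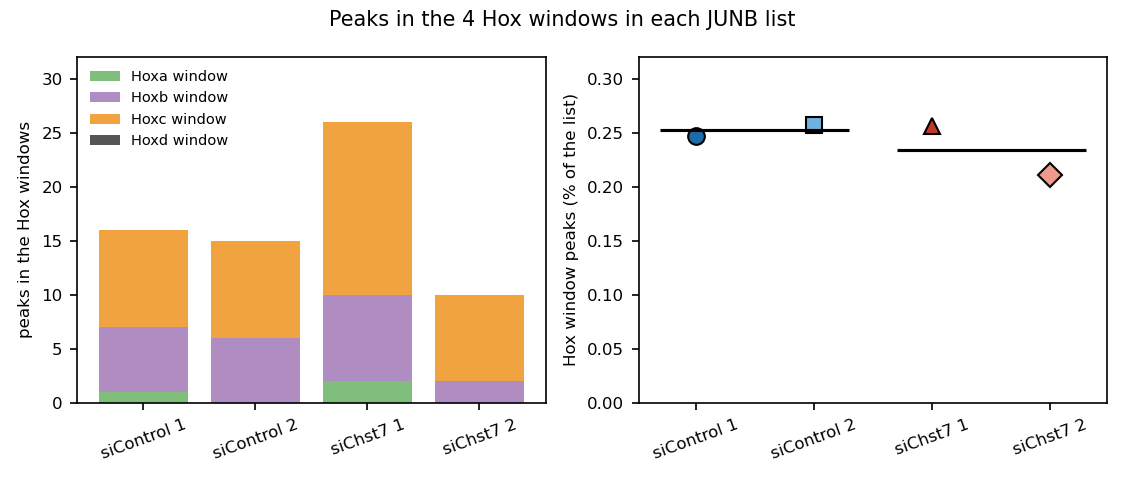
Peaks in the 4 windows in each list, as counts by cluster (left, stacked bars) and as percent of the list (right; points are lists, lines are the group means). Counts ran from 10 to 26 and shares from 0.211% to 0.257%, and the Hoxd window held 0 in every list.

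By cluster, the Hoxc window held 9, 9, 16 and 8 peaks and the Hoxb window 6, 6, 8 and 2 (siControl replicates 1 and 2, then siChst7 replicates 1 and 2). The Hoxa window held 1, 0, 2 and 0. Of the 32 regions, 0 were shared by the siControl lists and missing from the others, against 1.60% of the genome's regions, and 1 (3.12%) was shared by the siChst7 lists and missing from the others, against 3.88%. That region (103238443 to 103238922) lay inside Cbx5, 202 kb from Hoxc4, with folds of 7.14 and 6.94. It stood 1.15 kb from the end of Cbx5 that holds the gene's start. The region overlapping the Hnrnpa1 and Cbx5 promoters, held by all 4 lists, starts close by at 103239879. The peaks of the region shared by the siChst7 lists alone did not overlap by 50% of each, so that rule left 0. At 32 regions, both counts were near their background.

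Genes that set or use the Hox pattern included some with JUNB regions in every list. Counts are of genes with a nearest-end region in all 4 lists, beside 8.33% of all genes and 0 of 39 Hox genes. Counts for any list stand beside 25.1% of all genes and 5 of 39 Hox genes. Of 9 TALE cofactors, 1 had a region in all 4 lists (Pbx3, 31.4 kb away, with folds of 5.15 and 5.42 in siControl and 6.26 and 4.92 in siChst7), and 5 had one in any list. Of 30 Polycomb subunits, 2 did, and 7 had one in any list. The 2 were Aebp2, a cofactor of PRC2, and Pcgf5, a subunit of PRC1. Aebp2 had folds of 7.44, 9.33, 15.6 and 6.94 in the same order, at a region 47.2 kb away. Pcgf5 had 6.53, 8.84, 6.82 and 7.68 at 9.87 kb. Of 13 trithorax-related genes, 3 did, and 5 had one in any list. Kdm6b, which removes the Polycomb mark from histone H3, had folds of 20.6 and 10.6 in siControl and 19.0 and 10.4 in siChst7 at a region 9.68 kb away (chromosome 11, 69409663 to 69412331). Replicate 1 had the higher value with either siRNA, and the groups overlapped. Dot1l, a histone methyltransferase, had 2 such regions, the stronger 3.62 kb away with 11.3, 12.1, 17.8 and 11.0. Mllt3, a reader of histone acylation, had 2 such regions, the stronger 48.3 kb away with 11.3, 12.4, 13.7 and 17.0. For Mllt3 both siChst7 values lay above both siControl values, in single peaks called list by list. The share of all regions in 4 lists with such a separation is not given here, and an siRNA effect was not tested. The groups overlapped for Pbx3, Aebp2, Pcgf5 and Dot1l.

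Of 16 retinoic acid genes, 1 had a region in all 4 lists, Crabp1, a cytoplasmic retinoic acid-binding protein, with folds of 6.54 and 9.92 in siControl and 10.2 and 11.7 in siChst7, and 6 had one in any list. Of 26 other homeobox genes of mesenchyme, 1 did, Six4, with 5.80, 5.59, 7.49 and 6.19, and 5 had one in any list. Of 8 ParaHox and Hox-flanking homeobox genes, Evx1 and Evx2 among them, 0 did. In any list 2 of them had one, near the 25.1% of all genes. For Crabp1 and Six4 both siChst7 values lay above both siControl values, in single peaks called list by list. With 2 libraries per siRNA, the smallest possible exact permutation p is 0.333. The share of all regions in 4 lists with such a separation is not given here, and an siRNA effect was not tested. The median stretch of genome nearest to a gene was 236 kb for TALE cofactors, 59.7 kb for Polycomb, 47.1 kb for trithorax and 118 kb for retinoic acid genes, against 12.2 kb for Hox genes, and its part in these counts was not tested. For cell type markers, 3 of 5 fibroblast genes had a region in all 4 lists (Col1a1, Thy1 and Vim), as did 2 of 5 endothelial genes (Cdh5 and Kdr) and 3 of 4 epithelial genes (Epcam, Krt8 and Krt18), and 0 of 4 macrophage and 0 of 3 neuronal genes. The strongest such region of each marker gene lay from 0.602 kb (Vim) to 98.1 kb (Thy1) from the gene's nearest end. In any list, 4 of 5 fibroblast, 4 of 5 endothelial and 4 of 4 epithelial genes had a region. So did 2 of 4 macrophage and 1 of 3 neuronal genes, beside 25.1% of all genes. The median stretch was 114 kb for fibroblast, 159 kb for endothelial and 66.6 kb for epithelial genes. It was 61.4 kb for macrophage and 239 kb for neuronal genes, against 45.8 kb over all genes. The lists do not show whether the marker genes were expressed, and the part of other cell types in the Hox counts was not tested.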

How the data were processed

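Peak lists of 4 JUNB CUT&RUN libraries were used. Bowtie2, MACS3 and mm10 are named, without versions or settings, in the submitters' processing notes. Each deposited list gives per peak a start, end and summit, a fold enrichment (a ratio over local background), −log10 p and −log10 q values and a score, which is 10 times the −log10 q cut to a whole number. Peak names in the deposited lists carry 1 library each. No source used here says whether IgG served as control. A region missing from a list may hold signal below its threshold (lowest −log10 q 2.00 to 2.02).

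Peaks overlapping by at least 1 bp were joined, and a region was placed by its summits. Gene spans came from RefSeq (exons were not considered). Members and lists were chosen with earlier results of these data known. Named were regions in the bodies, flank regions in all 4 lists, those nearest to each cluster end and those of 1 siRNA alone. The Nckap1l, Calcoco1, Snf8, Atp5g1, Tax1bp1, Sp1, B4galnt2, Nfe2l1 and Skap1 regions, the weaker Itga5 regions and the printed promoters were chosen after their values were seen. The joining was tested on simulated lists whose window peaks overlapped almost fully or not at all. Slight overlaps and peaks joined only through another peak were not covered. Alternatives covered joining, q, fold, list and flank length, gene assignment, left-out libraries and a replicate block. Software was Python 3.11.15, NumPy 2.4.6, pandas 2.3.3, SciPy 1.17.1 and Matplotlib 3.10.9. Of the 39 Hox genes, 1 enters the counts and medians but is not described by itself.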

Additional observations from a re-analysis of the deposited data

How the results depend on the processing

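Hox genes owning a region in every list remained 0 in all 11 alternatives. Those on q, fold, equal list length, joining and a 20 kb assignment drop peaks, split regions or narrow the assignment. They could hardly raise a count of 0, so their outcome adds no support. Leaving out a library or counting the gene body with 5 kb on each side could have raised it. Of the 32 regions, 26 kept their number of lists with joining at 50% of each peak, 28 with summit windows, 27 at a q of at most 0.001, 20 at a fold of at least 5 and 10 at equal list length. Regions in any list numbered 17 at equal list length, 7 with 100 kb flanks and 73 with 1000 kb flanks, and 25 to 32 when a library was left out. Regions in all lists numbered 3 with summit windows, 0 with 100 kb flanks, 16 with 1000 kb flanks and 6 to 8 without a library. Body regions numbered 5 with 50% overlap, 1 at a q of at most 0.001, 1 at a fold of at least 5, 1 at equal list length and 1 to 4 without a library. Regions of siControl alone numbered 0 to 5 without a library. Regions of siChst7 alone numbered 0 with 50% overlap, 0 with 100 kb flanks, 2 with 1000 kb flanks and 2 to 8 without a library. Leaving out a library lowers the number of lists such a region must be in or absent from. The log2 difference of peak numbers reversed to −0.23 at equal list length (exact permutation p = 0.667) and ran from −0.63 to 0.75 without a library. It had no value with 100 kb flanks, where siChst7 replicate 2 held 0 peaks. The difference in share reversed to 0.0049 percentage points at a fold of at least 5 and ran from −0.04 to 0.0035 without a library. The other causes were not tested. With a replicate block the differences were 0.06 and −0.02 (exact sign-flip p = 1.00 for each); the numbers are not stated to mark a shared culture or day, and it changed no call. Without counts, depth limits cannot be stated per library.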

Other observations

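Several Hox window peaks carried identical values within a list. In siControl replicate 1 the peaks in Hoxa3, in Hoxc6 and near B4galnt2 each had a fold of 4.51 and a −log10 q of 2.66, although they stood on chromosomes 6, 15 and 11. In siChst7 replicate 1 the peaks near Hibadh, B4galnt2 and Nfe2l1 each had 4.61 and 3.05, and those near Tax1bp1, Hoxb9 and in Itga5 each had 5.19 and 4.02. In siControl replicate 2 the peaks near Skap1 and Hoxc13 each had 6.83 and 6.55.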
